A study of Mus musculus with 4 samples.

Results

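Foxp3, Foxp1, Foxp4, Foxo1 and Foxo3 are 5 genes of forkhead transcription factors, taken by symbol out of 21900 protein-coding genes of the RefSeq gene table (GRCm38.p6, which has the coordinates of mm10). For each of them, every summit of KAP1 enrichment was listed that lay at a gene end (within 1 kb of the lowest or highest coordinate of the gene, on either side), in the gene body (the rest of the gene) or outside the gene and within 20 kb of it. The summits come from chromatin immunoprecipitation and sequencing (ChIP-seq) of KAP1, the corepressor encoded by Trim28, in regulatory T cells of C57BL/6 mouse spleen that had been sorted and expanded in culture for 2 weeks. There were 2 samples precipitated with the KAP1 antibody 1Tb-A9 and 2 inputs made without antibody, and the inputs were not analysed here. No genotype or treatment beyond this was given, and the labels name neither the markers of the sort nor the animals or cultures behind each replicate, so differences between replicates may be technical. A list of summits holds no expression values, so the identity of the cells could not be checked against their markers.

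Forkhead proteins bind DNA through a winged-helix domain. FOXP3 is the lineage-defining factor of regulatory T cells, and its gene is controlled by a promoter and several conserved enhancers. FOXP1 and FOXP4 belong to the same subfamily, whose members pair with one another through a leucine zipper, and FOXP1 is known for keeping naive T cells quiescent. FOXO1 and FOXO3 stay in the nucleus while the kinase AKT is inactive, and in T cells they promote expression of Foxp3, of the interleukin-7 receptor and of homing genes. KAP1 itself has no sequence-specific DNA-binding domain and is brought to DNA by other proteins, above all KRAB zinc finger proteins.

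The summit lists differ 8.97-fold in length, with 8862 summits in replicate 1 against 79515 in replicate 2, and their read depth is unknown. A summit was called shared when a summit of the other replicate lay within 200 bp. Each summit carries the authors' score (−log10 of its p-value or its q-value), given here with its percentile within its own list. Scores were not compared between lists.

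The starts listed for these genes by RefSeq set the positions from which distances are counted below. The 250 bases before 4 starts are shown on each gene's own strand, 5′ to 3′. The member starts shown are the first of Foxp3, the internal Foxp1 start near a replicate 2 summit and the Foxo1 start near a replicate 1 summit. The remaining one is the start nearest to the stronger Foxp3 summit, that of the long noncoding RNA gene Flicr, which is not a member. Capitals mark each CG dinucleotide. The windows are chrX:7579426-7579675 for Foxp3 (plus strand), chrX:7573350-7573599 for Flicr (plus strand), chr6:99028299-99028548 for the third Foxp1 start (minus strand) and chr3:52268087-52268336 for Foxo1 (plus strand), on GRCm38.p6.
Foxp3: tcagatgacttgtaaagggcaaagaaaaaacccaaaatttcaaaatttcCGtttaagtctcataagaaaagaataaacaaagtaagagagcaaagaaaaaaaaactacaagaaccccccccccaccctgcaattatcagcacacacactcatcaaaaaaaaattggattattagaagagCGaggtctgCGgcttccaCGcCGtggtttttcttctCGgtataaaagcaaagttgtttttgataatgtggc
Flicr: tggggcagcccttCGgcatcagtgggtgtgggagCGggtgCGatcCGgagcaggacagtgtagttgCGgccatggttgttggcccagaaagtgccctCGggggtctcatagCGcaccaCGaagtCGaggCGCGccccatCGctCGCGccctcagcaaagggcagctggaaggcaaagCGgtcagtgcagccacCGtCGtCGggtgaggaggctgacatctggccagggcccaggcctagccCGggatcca
Foxp1 start 3: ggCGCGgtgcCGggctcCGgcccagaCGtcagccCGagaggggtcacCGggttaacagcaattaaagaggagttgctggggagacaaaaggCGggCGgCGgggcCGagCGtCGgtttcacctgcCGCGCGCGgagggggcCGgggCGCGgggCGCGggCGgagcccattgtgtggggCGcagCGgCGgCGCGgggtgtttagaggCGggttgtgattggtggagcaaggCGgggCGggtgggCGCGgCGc
Foxo1: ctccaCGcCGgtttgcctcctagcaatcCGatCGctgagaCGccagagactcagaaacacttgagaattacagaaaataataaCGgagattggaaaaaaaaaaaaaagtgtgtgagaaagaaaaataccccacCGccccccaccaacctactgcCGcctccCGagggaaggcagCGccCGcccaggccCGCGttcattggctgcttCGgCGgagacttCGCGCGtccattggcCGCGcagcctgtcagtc

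The Foxp3 window holds 6 CG dinucleotides, the same as the median of 32851 such windows in the table. The other 3 are richer, with 19 before Flicr, 20 before Foxo1 and 34 before the third Foxp1 start, and fewer CG were found in 80.3%, 82.1% and 96.5% of all windows. Of the remaining member starts, those of Foxp4 and Foxo3 had 27 and 31, the first and second Foxp1 starts had 11 and 3, and the second Foxp3 start had 7. Motifs were searched on both strands. The forkhead motif TGTTTGC occurred once, before the first Foxp1 start (4.3% of all windows hold it), and TGTTTAC occurred before none of the 8 member starts (3.17% of windows). GGGCGG, the box of SP and KLF factors, was found before the first and the third Foxp1 starts and those of Foxp4, Foxo1 and Foxo3, against 32.7% of windows. Copies of GGGCGG can overlap the CG count. RUNX (TGTGGT), ETS (CCGGAAG) and AP-1 (TGANTCA) motifs were in none of the 8, against 14.0%, 6.91% and 6.75% of windows. A match is a description of the letters only. No summit of either replicate lay in any of these windows or in the 50 bases after the start, while 2.4% of all windows extended in this way held a replicate 1 summit, 3.67% a replicate 2 summit and 2.1% a shared one.

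Together the members had 12 summits in replicate 1 and 56 in replicate 2. Of the replicate 1 summits, 11 were shared (91.7%, Wilson 95% interval 64.6 to 98.5%), against 87.1% over the whole list. Of the replicate 2 summits, 11 of 56 had a partner (19.6%, 11.3 to 31.8%), against 9.71% over the whole list. The intervals cover counting error only and treat summits as independent. However, 31 of the 56 replicate 2 summits and 5 of the 11 shared ones belonged to Foxp1 alone, and no test was made. At gene ends lay 2 of the 12 replicate 1 summits, 1 of the 56 replicate 2 summits and 1 of the 11 shared ones. The end windows cover far fewer bases than the bodies and the 20 kb outside, so these counts do not show a lack of summits at ends. Among paired summits the widest gap was 48 bp, and the nearest unpaired one was 668 bp from its neighbour. The end summit farthest from an end was 655 bp away (Foxo1) and the nearest one outside the 1 kb window was 1266 bp away (Foxp4). A shared summit was found at an end of 1 member, Foxp1 (8.56% of all coding genes have one), in the body of 2, Foxp1 and Foxo3 (12.4% of coding genes long enough to have a body), and outside the gene of 4, all but Foxp1 (20.9%). With a limit of 10 kb in place of 20 kb, 2 genes had one outside, Foxp3 and Foxo1, against 11.9% of coding genes. All 5 members had at least 1 shared summit in one of these places, against 32.7% of coding genes. With the replicate 1 list alone, 2 members had an end summit, Foxp1 and Foxo1 (9.42% of coding genes). With the replicate 2 list alone, 1 had one at an end (22.2%), 4 had one in the body (54.4%), 5 had one outside (71.3%) and 5 had one in any place (80.9%). Of the members, 4 are longer than 50 kb. Of the 4945 coding genes of that length, 25% had a shared summit in the body, 8.66% at an end and 38.4% in any of the 3 places.

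**Figure D1:**
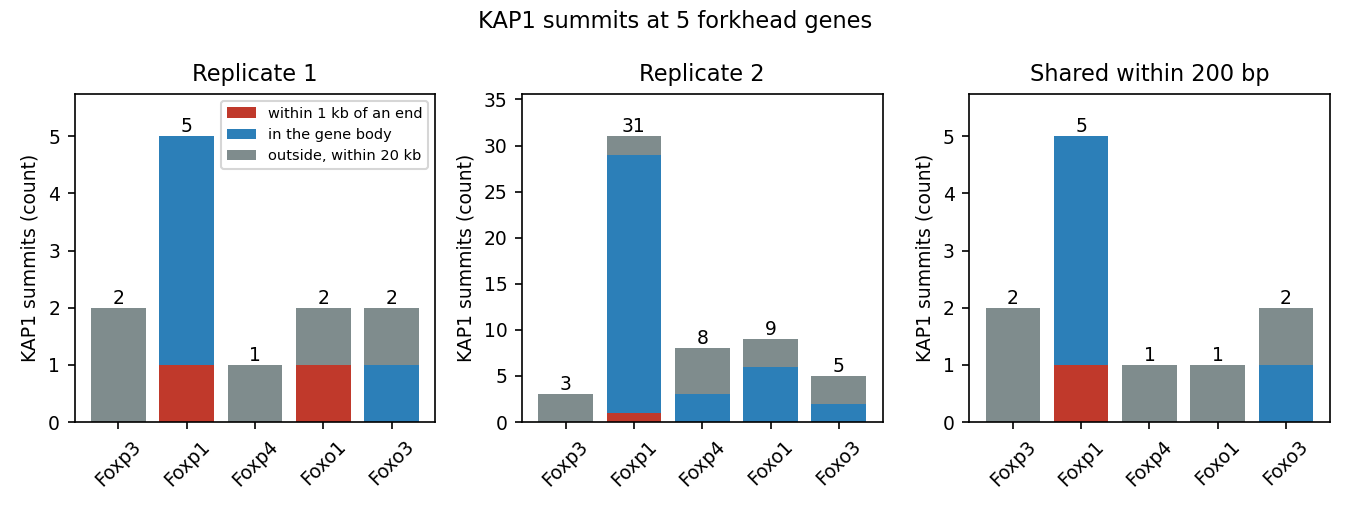
Number of KAP1 summits of each gene in replicate 1, in replicate 2 and shared between them, stacked by place (within 1 kb of an end, in the body, outside within 20 kb). Foxp1 leads in all panels with 5, 31 and 5 summits, and each panel has its own vertical scale.

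Foxp3 (gene ID 20371) lies on the plus strand of chromosome X from 7579676 to 7595243, a span of 15568 bp, with starts listed at 7579676 and 7580483. No summit of either replicate fell within the gene or within 1 kb of it. All of its summits lay on the 5′ side. The nearer one was placed at 7572438 in replicate 1, with a score of 6.64 (percentile 45.5), and at 7572390 in replicate 2, with a score of 21.7 (percentile 96.1). It lay 7238 and 7286 bp before the first start. The farther shared summit was at 7565451 in replicate 1 (6.16, percentile 40.5) and at 7565445 in replicate 2 (10.3, percentile 68.7). Another site at 7564783 was listed in replicate 2 alone (17.0, percentile 92.7), 668 bp from the nearest replicate 1 summit. Both replicates thus held the same 2 sites upstream of Foxp3 in the middle of the replicate 1 scores, and replicate 2 placed the nearer one among its strongest 5%. The median percentile of all shared summits was 58.3 in replicate 1 and 81.2 in replicate 2. When summits within 1000 bp of each other were merged, the site at 7564783 absorbed its weaker neighbour in replicate 2, and Foxp3 kept 1 shared summit.

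All Foxp3 summits lie inside another gene. Ppp1r3f, which encodes a regulatory subunit of protein phosphatase 1, occupies 7558562 to 7574281 on the minus strand, and it contains both replicate 1 summits and all 3 replicate 2 summits. The nearer site lies 1843 bp (replicate 1) and 1891 bp (replicate 2) after the Ppp1r3f start. The same site is 1162 and 1210 bp before the start of Flicr, a long noncoding RNA gene of the plus strand that runs from 7573600 to 7581016 and overlaps the 5′ part of Foxp3. Neither Flicr nor Ccdc22, the COMMD-binding protein gene whose 3′ end overlaps that of Foxp3 by 1434 bp, held a summit. Position alone does not assign this site to Foxp3, Flicr or Ppp1r3f. Genes on chromosome X had few summits in these lists: 3.31% of its 966 coding genes had a shared summit outside the gene within 20 kb, 7.76% had one in any of the 3 places, and 28.1% had a replicate 2 summit in any of them.

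**Figure D2:**
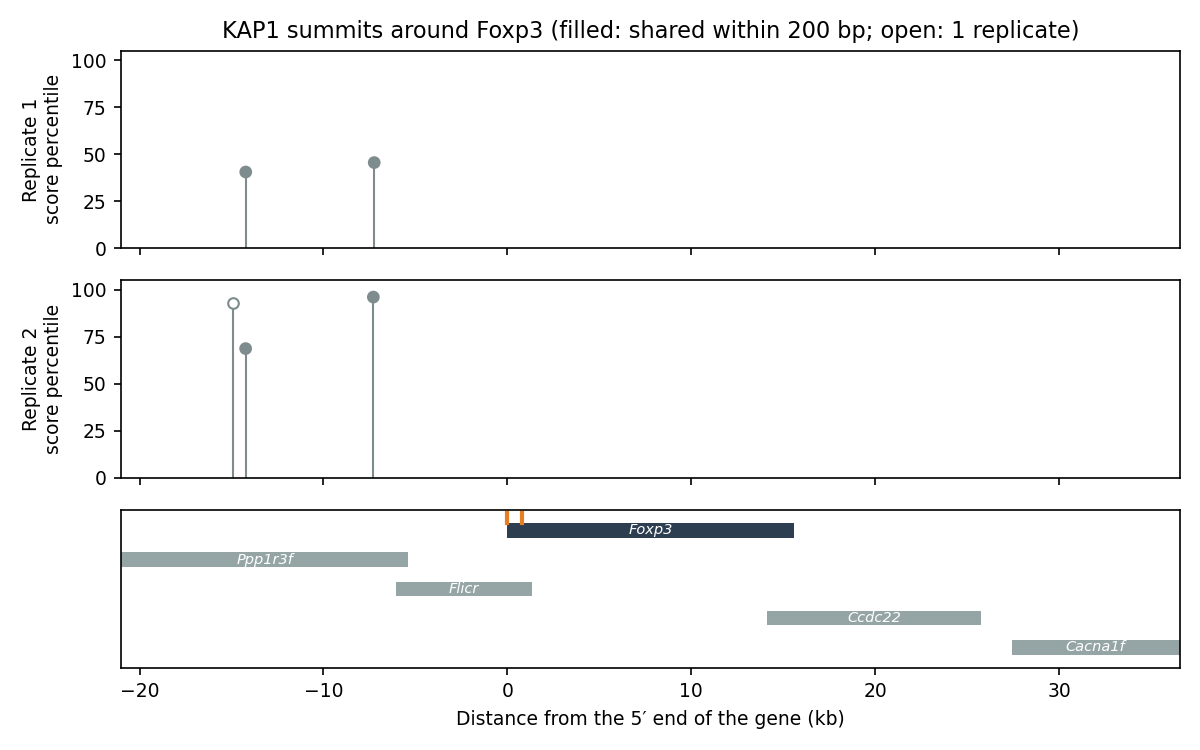
KAP1 summits by distance from the Foxp3 5′ end in kb (horizontal) and by score percentile within each replicate's list (vertical), with genes as bars and listed Foxp3 starts as orange ticks. The 2 shared sites (filled) and the replicate 2 site (open) all lie over Ppp1r3f, and none lies over Foxp3, Flicr or Ccdc22.

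Foxp1 (gene ID 108655) spans 597405 bp on the minus strand of chromosome 6, from 98925342 to 99522746, and carried the most summits of the 5. Starts are listed at 99520993, 99266515 and 99028298, so that the gene makes long and short transcripts. It was the only one of the 5 with a shared summit at an end. This summit was at 99522364 in replicate 1 (5.1, percentile 28.6) and at 99522373 in replicate 2 (13.3, percentile 84.4), 382 and 373 bp inside the 5′ end. It lay 1371 bp before the first listed start in replicate 1 and 1380 bp in replicate 2. Counted from listed starts rather than from gene ends, a change made after the data were seen, no member had a shared summit within 1 kb, against 8.16% of the 17492 coding genes with a listed start. By the same count, 1 member had a replicate 1 summit (Foxo1; 9.06% of genes) and 1 a replicate 2 summit (Foxp1; 17.4%).

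The Foxp1 body held 4 shared summits. The strongest was at 99096050 in replicate 1 (12, percentile 74.6) and at 99096064 in replicate 2 (32.9, percentile 98.3), between the second and the third starts and 67752 bp before the third. It had the highest percentile of all member summits in both lists. The site at 99404178 (5.92, percentile 37.7) and 99404173 (25.6, percentile 97.3) lay between the first and second starts. Its rank was thus below the middle of replicate 1 and near the top of replicate 2. Shared summits in general also ranked lower in replicate 1 (median percentile 58.3) than in replicate 2 (81.2). The remaining 2 sites lay after the third start. One was at 99025295 (8.34, percentile 58.3) and 99025285 (8.38, percentile 49.8), 3003 and 3013 bp after that start, and the other was on the same base in both replicates, 98992925 (7.25, percentile 48.3, and 9.58, percentile 61.4). The stretch from the second to the first start, 254.5 kb, and that from the third to the second start, 238.2 kb, held 1 shared summit each, and the last 103.0 kb of the gene held 2.

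Replicate 2 alone added 26 sites to Foxp1, 24 in the body and 1 outside each end, at 99529501 (8.39) and 98913227 (9.26). Of the sites in replicate 2 alone, 3 were among the strongest 5% of that list: 99181775 (20.2, percentile 95.4), 99375229 (23.1, percentile 96.6) and 99427858 (21.1, percentile 95.8). The nearest replicate 1 summits were 85.7, 28.9 and 23.7 kb away. Over the whole list, 58.7% of replicate 2 summits at percentile 95 or higher had a replicate 1 partner, and 2 of the 5 such Foxp1 summits did. A further site at 99028988 (10.2, percentile 64.6) lay 690 bp before the third start, the CG-rich one shown above, and no replicate 1 summit was closer to that start than 3003 bp. The site at 99281267 (13.7, percentile 85.9) was the nearest to the second start, at 14752 bp. The replicate 2 summits in the gene were spread along it, with a median spacing of 14.5 kb (3.7 to 64.7 kb), against 16.7 kb over the genome-wide list.

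Set against length, Foxp1 had 0.672 shared body summits per 100 kb, more than 79.7% of the 4944 other coding genes of 50 kb or longer, of which 75% had none. With replicate 2 alone it had 4.7 per 100 kb, more than 64.9% of them, and the median of such genes was 3.6. Among 557 coding genes of 300 kb or longer, 119 had a shared body summit and 13 had 4 or more, and the highest count was 10. Foxp2, the paralog known for its role in neurons, is of similar length (540629 bp). It had 20 body summits and 1 end summit in replicate 2 and no replicate 1 summit in any of the 3 places.

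**Figure D3:**
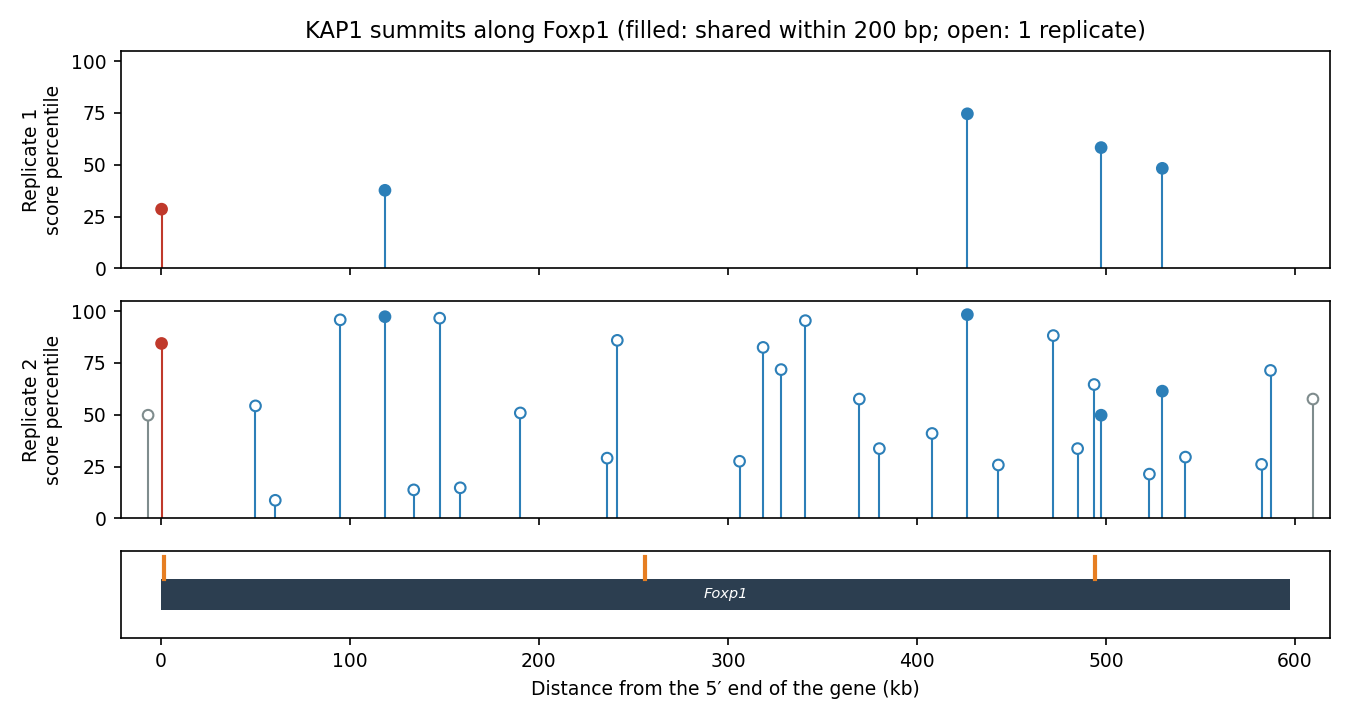
KAP1 summits by distance from the Foxp1 5′ end in kb (horizontal) and by score percentile within each replicate's list (vertical), with the gene as a bar and its 3 listed starts as orange ticks. All 5 replicate 1 summits are shared (filled), while 26 of the 31 replicate 2 summits have no partner (open), some of them near the top of the scale.

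Foxp4 (gene ID 74123), on the minus strand of chromosome 17 from 47867133 to 47924632 (57500 bp), had no shared summit at an end or in its body. Its single shared site lay on the same base of both lists, 47943128, which is 18496 bp before the start. The score was 3.21 in replicate 1 (percentile 6.97) and 4.78 in replicate 2 (percentile 3.7), so that the site was among the weakest of each list. Replicate 2 alone added 3 body sites, at 47873721 (5.64), 47902022 (8.31) and 47914290 (8.18). Outside the gene it added 4 more, of which the nearest was 1266 bp before the start, at 47925898 (6.98), within the long noncoding RNA gene Gm46601. None of the 8 replicate 2 summits was above percentile 53.3 of that list.

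Foxo1 (gene ID 56458), on the plus strand of chromosome 3 from 52268337 to 52350109 (81773 bp), was the only member whose listed start had a summit of replicate 1 within 1 kb. That summit was at 52268992, 655 bp after the start, with a score of 4.17 (percentile 14.3), and it had no partner, since the nearest replicate 2 summit was 6263 bp away. In the whole of replicate 1, 72.6% of summits above percentile 10 and up to 20 had a partner. The shared site of Foxo1 lay 5627 bp before the start, at 52262710 in replicate 1 (2.31, percentile 2.3) and at 52262729 in replicate 2 (4.65, percentile 3.26). The body held 6 summits in replicate 2 and none in replicate 1. The highest scores among them were 13.3 at 52331194 (percentile 84.4), 12.5 at 52290518 (81.5) and 12.3 at 52280170 (81.0). This made 7.52 body summits per 100 kb in replicate 2, more than in 88.1% of the other coding genes of 50 kb or longer, while the shared count in the body was 0, as in 75% of them. Below percentile 95, 7.13% of all replicate 2 summits had a replicate 1 partner.

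Foxo3 (gene ID 56484), on the minus strand of chromosome 10 from 42181845 to 42276695 (94851 bp), had 1 shared summit in the body and 1 outside. The body summit was at 42269458 in replicate 1 (5.1, percentile 28.6) and at 42269444 in replicate 2 (6.64, percentile 24.9), 7237 and 7251 bp after the start. It lies within the long noncoding RNA gene Gm38485, which is contained in Foxo3. The outer site was at 42295174 (5.1, percentile 28.6) and 42295172 (6.32, percentile 17.0), 18479 bp before the start in replicate 1. It was closer to Afg1l, a mitochondrial ATPase gene, whose end was 17407 bp away. Replicate 2 alone added a body site at 42231748 (8.31) and a pair on the 3′ side at 42180150 (9.77) and 42178704 (11.9). Foxo3 had 1.08 shared body summits per 100 kb, resting on 1 summit, which was more than in 84.8% of the other coding genes of 50 kb or longer. With replicate 2 alone it had 2.15 per 100 kb, more than in 28.7% of them.

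**Figure D4:**
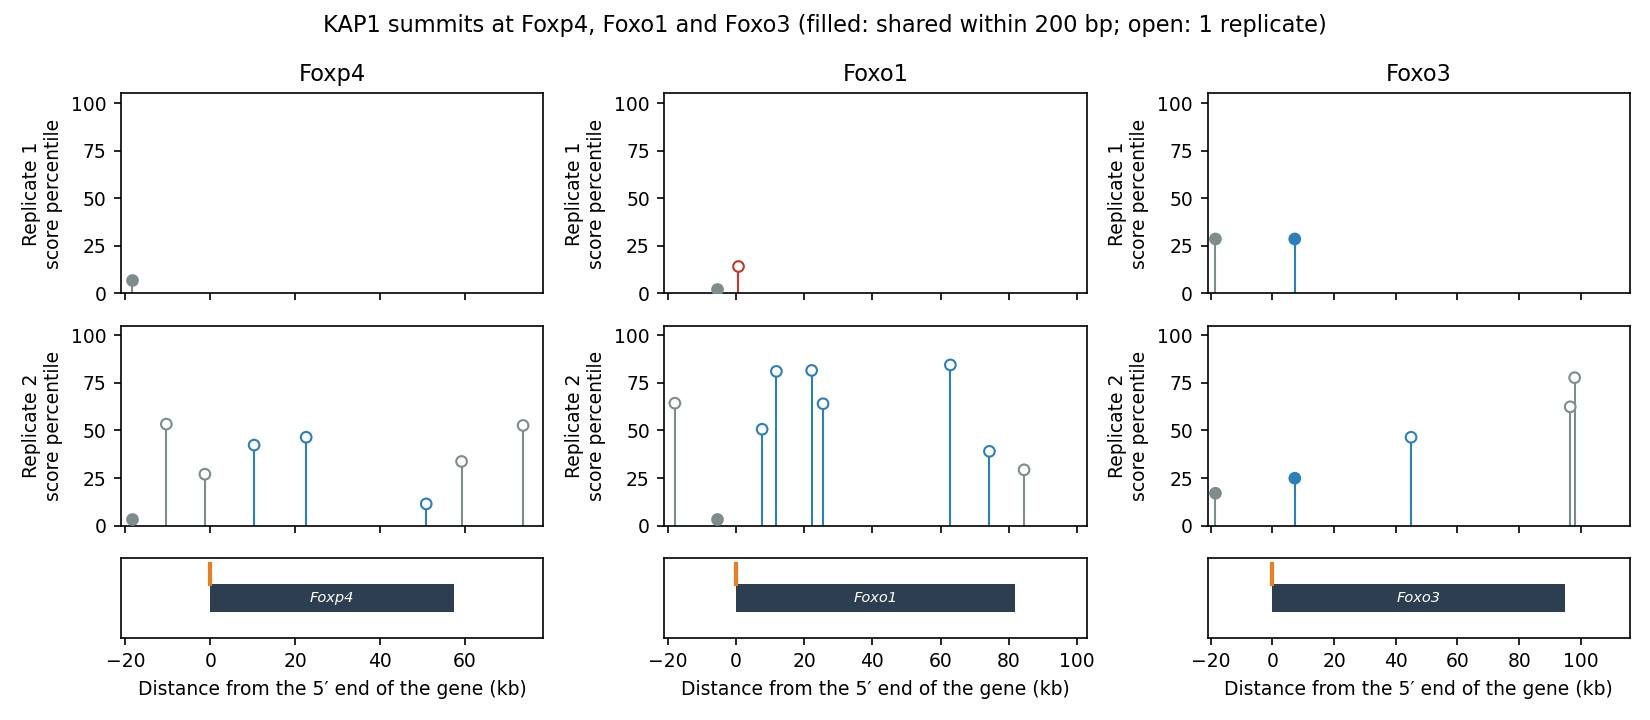
KAP1 summits at Foxp4, Foxo1 and Foxo3 by distance from the 5′ end of each gene in kb (horizontal) and by score percentile within each replicate's list (vertical), with genes as bars and starts as orange ticks. Every replicate 1 summit of these genes lies below percentile 30 and at or before the first 10 kb of the gene, and the Foxo1 summit at the start is open because it has no partner.

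The rank of the shared sites differed between genes, most clearly in replicate 2. In replicate 2, the 7 shared sites of Foxp3 and Foxp1 ranked from percentile 49.8 to 98.3, and the 4 of Foxp4, Foxo1 and Foxo3 from 3.26 to 24.9, without overlap. In replicate 1 the ranges were 28.6 to 74.6 and 2.3 to 28.6, which meet at a tied score. This grouping was made from these same values after they were seen and was not tested. It rests on few sites, since Foxp1 gave 5 of the 7 and Foxp4 and Foxo1 gave 1 each. The replicate 1 score of 5.1, to 3 digits, is carried by 3 member summits and by 1188 summits of the whole list (13.4%), so ranks there are coarse. Of the 11 shared sites, 9 were below percentile 50 in replicate 1 and 5 in replicate 2, against 44.3% and 29.9% of all shared summits. The partners were close to each other, at 0 to 48 bp with a median of 9 bp, against a median of 6 bp over all 7720 shared sites. With only summits at or above the median score of each list, 2 shared sites remained, both in Foxp1. When replicate 2 was reduced to its 8862 highest scores, 3 remained, 2 of them in Foxp1 and 1 by Foxp3.

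**Figure D5:**
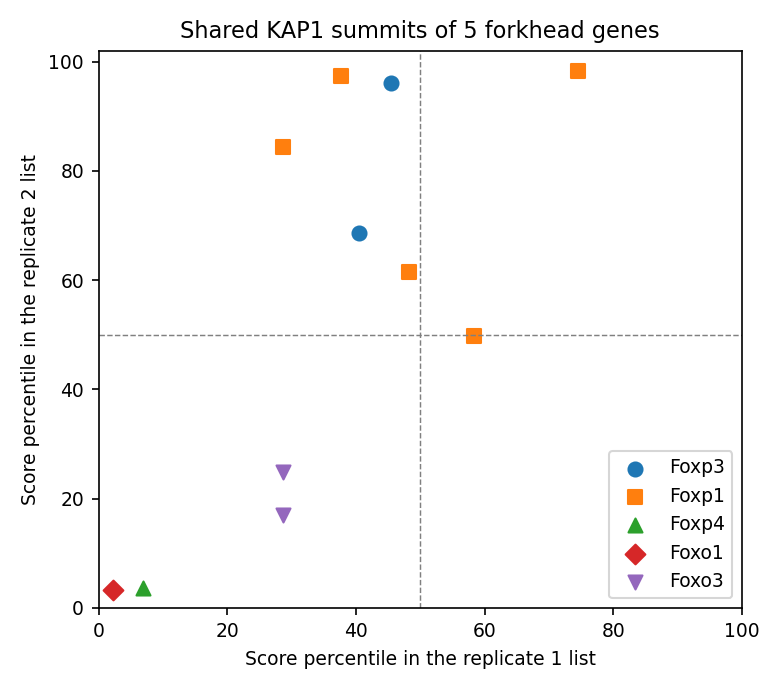
Score percentile of each of the 11 shared summits in the replicate 1 list (horizontal) and in the replicate 2 list (vertical), by gene, with dashed lines at percentile 50. The Foxp3 and Foxp1 sites lie above those of Foxp4, Foxo1 and Foxo3 on the vertical axis.

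The side of the gene could be read from the strand of the listed starts. All 5 shared summits outside the genes lay on the 5′ side: 2 by Foxp3 and 1 each by Foxp4, Foxo1 and Foxo3. Over the 17492 coding genes with a listed start, 48.8% of such shared sites were on the 5′ side. In replicate 2, 10 of the 16 summits outside the members lay on the 5′ side (62.5%), against 50.7% over those genes. This comparison was chosen after the values were seen and was not tested.

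Some of the coding genes next to the members also had shared summits in one of the 3 places, as did 32.7% of all coding genes. Ppp1r3f held in its body the same 2 shared sites that are counted above for Foxp3. Maml3, a coactivator gene of Notch signalling 163.0 kb below Foxo1, runs from 51687320 to 52105319 and is much longer than Foxo1 (81773 bp). It had 10 shared body summits, the highest count among the 557 coding genes of 300 kb or longer. Foxo1 had none, as in 75% of the other coding genes of 50 kb or longer. Afg1l, 35.9 kb above Foxo3, had 1 shared summit at an end and 1 outside, and the latter is the outer site counted above for Foxo3. Eif4e3, a cap-binding protein gene 99.1 kb above Foxp1, and Armc2, 163.5 kb below Foxo3, had 1 shared body summit each, and 1700122O11Rik above Foxp4 had 1 outside. Ccdc22, Gm765, Mdfi and Cog6 had no shared summit in any of the 3 places.

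The other forkhead genes, most of them developmental factors, gave a background for the family. Of 39 such genes, 3 had a shared summit at an end (7.69%), 4 of 36 in the body (11.1%) and 4 outside within 20 kb (10.3%), and 8 had one in any of these places (20.5%, set beside 32.7% of coding genes). These shares were not matched for length. Many of the 39 genes are short, such as Foxd4 (2074 bp), while all members but Foxp3 are longer than 50 kb. The median count of the 39 genes was 0 shared and 3 replicate 2 summits per gene, which are also the medians of all coding genes. The end sites belonged to Foxk1, a repressor of autophagy genes (9.22 in replicate 1 and 54.2 in replicate 2, 217 bp outside the gene), Foxn3, a cell cycle checkpoint factor (8.4 and 17.8, 947 bp after its 5′ end), and Foxm1, an activator of mitotic genes (7.27 and 18.5, 734 bp outside the gene). The FOXO paralogs Foxo4 and Foxo6 had no replicate 1 summit. By the summed difference of 6 counts (end, body and outside, in each of 2 replicates), the gene most like Foxp1 was Foxn3, with a difference of 7, and Foxn3 had 3 body summits in replicate 1 and 23 in replicate 2. Foxj2 was most like Foxp4 (difference 1), Foxn2 most like Foxo1 (5) and Foxa3 most like Foxo3 (2), while 2 genes tied for Foxp3 (2).

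Genes that act on or with the members were described from lists made with earlier results of these data known. Of 22 genes of the PI3K and AKT pathway and FOXO targets, 7 had a shared summit at an end (31.8%), 9 in the body (40.9%) and 8 outside (36.4%), beside 8.56%, 12.4% and 20.9% of all coding genes. The median was 2 shared summits per gene, against 0 over all coding genes. By the mean percentile of both scores, the end sites that ranked highest were at Xpo1, the exportin of nuclear export (10.3 in replicate 1 and 24.1 in replicate 2, 592 bp after its 5′ end), and Pdpk1, the kinase that activates AKT (9.5 and 16.0, 175 bp beyond its 3′ end). Pik3cd, the delta catalytic subunit of PI3K, had one 661 bp before its 5′ end (13.4 and 10.2). Il7r, a FOXO1 target that encodes the interleukin-7 receptor alpha chain, had one 47 bp after its 5′ end (11.9 and 10.2). Of 33 regulators and partners of Foxp3, 7 had one at an end (21.2%), 16 in the body (48.5%) and 10 outside (30.3%), with a median of 1 shared summit per gene. By the same mean percentile, the end sites of the Foxp3 regulators and partners were led by Cbfb, the partner of RUNX proteins (27.7 and 82.6, 246 bp before its 5′ end), Bach2, a repressor of effector genes (31.0 and 33.7, 643 bp beyond its 3′ end), Klf10, a TGF-beta response gene (14.4 and 40.5, 429 bp inside an end), and Kmt2d, a histone H3 lysine 4 methyltransferase (8.47 and 13.8, 955 bp inside its 3′ end).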

How the data were processed

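KAP1 ChIP-seq and input were made from 2 samples each, and the KAP1 samples have 1 list of peak summits each. The submitters' processing notes name MACS2 2.2.1, Bowtie2 2.2.9 and Picard 2.1.1, on mm10, and the sources used here do not give settings, control or threshold. Per the labels' protocols, fragments of 150 to 400 bp were selected. The deposited score is a −log10 p-value or q-value. Depth is unknown. Positions are 1-based.

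Summits were paired within 200 bp and placed against the lowest and highest gene coordinates of RefSeq GRCm38.p6 (21900 coding genes with a position, 19301 with a body) in Python 3.11.15 with pandas 2.3.3. Strand and starts came from RefSeq's promoter table, which held all 5 members. Genes are not replicates, so counts stand beside those of all coding genes and no test was made. The counting was tested on simulated data. The members and lists were chosen with earlier results of these data known. Named genes were the members, their coding neighbours, the most alike forkhead gene, up to 4 genes per list by mean percentile of an end summit, and Foxp2, Foxo4 and Foxo6 chosen after their values were seen.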

Additional observations from a re-analysis of the deposited data

How the results depend on the processing

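The 11 shared summits of the 5 genes, and the 1, 2 and 4 genes with a shared summit at an end, in the body and outside within 20 kb, were unchanged with shared distances of 50 and 500 bp, with ends of 500 and 2500 bp and with a flank of 50 kb, where 38.2% of coding genes have one outside in place of 20.9%. With summits merged, there were 10 shared summits, and the counts of genes did not change. With a flank of 10 kb there were 8 shared summits and 2 genes with one outside (11.9% of coding genes). With scores at or above the medians there were 2 shared summits, and the genes with one at an end, in the body and outside numbered 0, 1 and 0 (5.0%, 7.71% and 13.4% of coding genes have one under this setting). With replicate 2 reduced there were 3 shared summits, and these genes numbered 0, 1 and 1 (3.88%, 6.12% and 10.6%). Counting from listed starts, added after the data were seen, gave 0 genes with one at an end. Using 1 replicate alone, the summits numbered 12 (without replicate 2) to 56 (without replicate 1), the genes with one at an end 1 to 2, in the body 2 to 4 and outside 4 to 5. Unknown depth limits what absence from the shorter list means. No paired analysis was possible because the results come from no test: the summit lists used here belong to the 2 KAP1 samples, which form 1 group.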
